A study of Mus musculus with 4 samples.

Results

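The peaks described here lie inside protein-coding genes, in introns, a short way from a gene start. They were taken from the merged peak list of ALaP-seq, a method that profiles the chromatin near PML bodies. A peak was a member when it lay on an autosome, when its midpoint was inside a GENCODE M21 protein-coding gene and in no exon of one, and when that midpoint was more than 1 kb and at most 10 kb from the nearest 5' end of a protein-coding gene, called a start below. Of the 26496 peaks in the list, 26268 were autosomal, and 2115 of these (8.05%) were members. Introns more than 10 kb from any start, called deep introns, held 4687 peaks. Promoters, within 1 kb of a start, held 8560, and the sequence between genes held 2216 at 1 to 10 kb. The members are called near-intron peaks.

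All samples came from E14 cells, a line of mouse embryonic stem cells, with a knock-in that joins the peroxidase APEX to PML, and no group lacks it. The medium held leukemia inhibitory factor (LIF) and inhibitors of GSK3 (CHIR99021) and of MEK (PD0325901). There were 2 samples given hydrogen peroxide, which makes APEX attach biotin to nearby chromatin, and 2 samples in which it was omitted. The peak list names no sample and holds only positions, so every result is a position, a width, a count or a sequence. The treated samples could not be set against the controls and no spread between replicates exists.

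PML bodies are round nuclear structures built by the PML protein, in which many proteins modified by SUMO gather, among them Daxx, the histone chaperone partner of Atrx, and p53. Introns near a gene start commonly hold enhancers, which bind transcription factors and raise the activity of a promoter, and they also hold alternative promoters from which shorter transcripts begin. In embryonic stem cells grown in this medium, enhancers are bound by Oct4, Sox2, Nanog, Esrrb and Klf factors.

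Sequences of 11 windows are shown because they hold words of transcription factors that were more frequent in near-intron peaks than in the sequence beside them. Each is the central 200 bp of a member, from GRCm38 (mm10), printed 5' to 3' on the strand of the host gene, with every match to the word in capitals. The windows contain no annotated exon of any gene. The octamer word ATGCAAAT, read by Oct4 and other POU factors, was in a peak of Uba2, which encodes a subunit of the SUMO-activating enzyme, and in a peak of Kat6b, a histone acetyltransferase gene.

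Uba2, chr7:34165177-34165376, minus strand: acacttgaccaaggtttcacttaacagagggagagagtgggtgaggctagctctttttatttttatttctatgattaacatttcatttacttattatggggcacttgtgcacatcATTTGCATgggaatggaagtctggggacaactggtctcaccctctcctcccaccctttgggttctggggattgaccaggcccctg

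Kat6b, chr14:21486228-21486427, plus strand: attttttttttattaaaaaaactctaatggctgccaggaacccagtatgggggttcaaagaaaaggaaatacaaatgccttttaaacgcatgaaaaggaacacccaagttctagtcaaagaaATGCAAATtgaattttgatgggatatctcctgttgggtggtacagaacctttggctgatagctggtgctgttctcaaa

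The Esrrb word TCAAGGTCA, which this orphan nuclear receptor reads, was present in 2 copies in a peak of Slc25a13, which encodes a mitochondrial carrier, and once in a peak of the integrin gene Itga5. Repeat-masked bases made up 47.5% of the peak in Slc25a13 and 44.6% of the peak in Itga5.

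Slc25a13, chr6:6212466-6212665, minus strand: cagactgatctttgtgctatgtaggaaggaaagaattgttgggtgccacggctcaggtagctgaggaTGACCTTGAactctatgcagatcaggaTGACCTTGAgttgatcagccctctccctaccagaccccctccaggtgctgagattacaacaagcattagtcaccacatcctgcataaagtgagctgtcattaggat

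Itga5, chr15:103363962-103364161, minus strand: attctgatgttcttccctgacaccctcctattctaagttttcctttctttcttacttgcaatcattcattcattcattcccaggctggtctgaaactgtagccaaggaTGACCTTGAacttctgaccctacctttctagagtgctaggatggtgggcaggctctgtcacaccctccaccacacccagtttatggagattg

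The Klf word CCACACCC lay 6 bp from the midpoint of a peak within the model of Trim28 (12999114 to 13031035 on chromosome 7), the gene of a corepressor of zinc finger proteins. In Bcl3, which encodes an NF-kappaB cofactor, a window held 3 copies in a sequence that repeats itself.

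Trim28, chr7:13014408-13014607, plus strand: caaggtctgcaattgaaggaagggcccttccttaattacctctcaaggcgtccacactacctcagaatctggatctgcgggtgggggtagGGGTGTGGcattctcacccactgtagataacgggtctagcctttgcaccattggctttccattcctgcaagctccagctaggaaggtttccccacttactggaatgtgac

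Bcl3, chr7:19815587-19815786, minus strand: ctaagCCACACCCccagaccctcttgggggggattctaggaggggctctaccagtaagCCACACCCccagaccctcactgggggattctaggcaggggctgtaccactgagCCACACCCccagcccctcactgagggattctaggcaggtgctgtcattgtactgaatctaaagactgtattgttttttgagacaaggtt

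The GC box GGGGCGGGG, read by Sp1 and its relatives, occurred in 2 copies in a peak of the polycomb gene Phf19 and once in a peak of Usp28, a gene of a ubiquitin protease.

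Phf19, chr2:34905068-34905267, minus strand: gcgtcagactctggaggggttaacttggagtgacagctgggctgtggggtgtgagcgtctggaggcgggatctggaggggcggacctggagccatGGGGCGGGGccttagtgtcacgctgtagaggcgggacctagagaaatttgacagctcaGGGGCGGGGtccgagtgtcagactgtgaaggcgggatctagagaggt

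Usp28, chr9:48991709-48991908, plus strand: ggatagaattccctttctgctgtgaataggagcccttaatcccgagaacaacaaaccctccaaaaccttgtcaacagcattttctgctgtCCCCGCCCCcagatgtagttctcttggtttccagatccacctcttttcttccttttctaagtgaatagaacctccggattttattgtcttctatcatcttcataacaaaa

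The word AGGGGGCGC, part of the site of the chromatin boundary factor CTCF, was in a GC-rich peak of the pluripotency gene Sall4 and in a peak of Spry2, a feedback inhibitor of FGF signalling.

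Sall4, chr2:168766297-168766496, minus strand: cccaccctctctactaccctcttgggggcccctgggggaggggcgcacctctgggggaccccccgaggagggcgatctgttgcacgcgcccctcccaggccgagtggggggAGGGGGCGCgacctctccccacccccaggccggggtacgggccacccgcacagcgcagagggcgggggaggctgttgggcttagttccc

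Spry2, chr14:105895019-105895218, minus strand: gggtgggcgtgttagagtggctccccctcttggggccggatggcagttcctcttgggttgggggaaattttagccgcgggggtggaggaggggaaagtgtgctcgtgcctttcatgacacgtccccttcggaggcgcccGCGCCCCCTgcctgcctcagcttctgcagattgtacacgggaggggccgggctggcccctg

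A second peak of Sall4 carried the word GGAATGT of the TEAD factors, which act with the YAP coactivator.

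Sall4, chr2:168762631-168762830, minus strand: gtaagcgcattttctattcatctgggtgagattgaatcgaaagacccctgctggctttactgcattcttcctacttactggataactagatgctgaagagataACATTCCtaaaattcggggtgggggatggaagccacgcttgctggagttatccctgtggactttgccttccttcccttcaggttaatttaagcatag

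Near introns made up 137 Mb of ungapped sequence and held 15.4 peaks per Mb, against 6.27 per Mb in the 748 Mb of deep introns. The ratio was 2.46 (95% interval 2.34 to 2.59, exact binomial test on the 2 lengths, two-sided, p = 2.93e-227). Density was highest just past the promoter. It was 25.8 peaks per Mb at 1 to 2 kb (439 peaks, 95% interval 23.5 to 28.4), 17.8 at 2 to 3 kb, 14.6 at 3 to 4 kb and 10.1 at 9 to 10 kb (134 peaks, interval 8.47 to 11.98). The part up to 5 kb held 18.2 per Mb and the part from 5 to 10 kb held 12.9, a ratio of 1.41 (interval 1.29 to 1.54, exact binomial test, p = 4.89e-15). Sequence between genes held 16.2 peaks per Mb at 1 to 10 kb and 5.75 beyond, so a higher density near starts was seen outside genes as well.

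**Figure D1:**
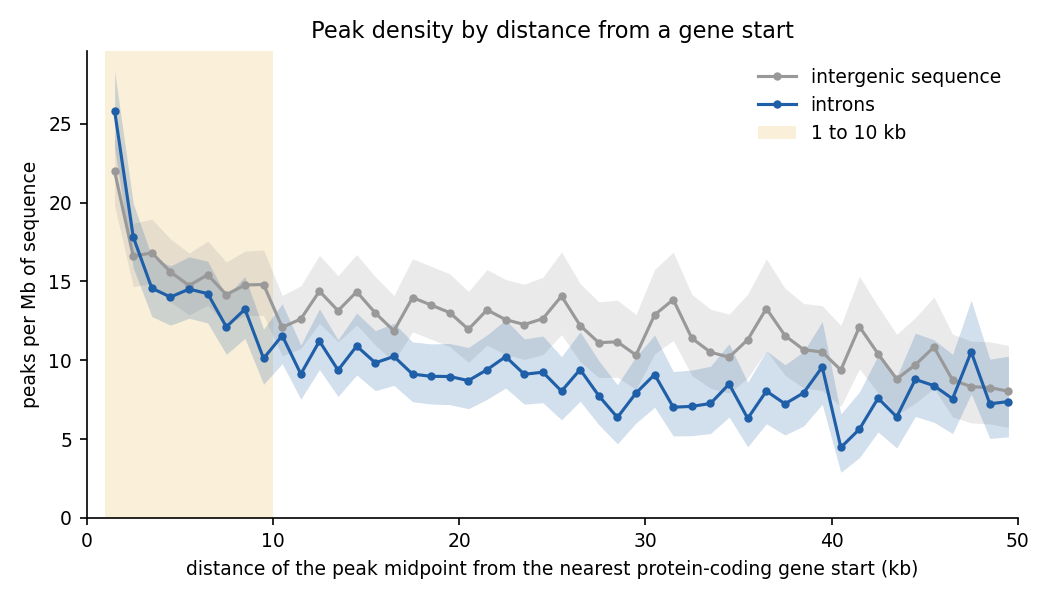
Peaks per Mb of ungapped autosomal sequence (vertical axis) against distance from the nearest protein-coding gene start in kb (horizontal axis), in bins of 1 kb, for introns and for sequence between genes; the bands are exact 95% intervals and the shaded part is 1 to 10 kb. Introns start at 25.8 per Mb at 1 to 2 kb and reach 10.1 at 9 to 10 kb.

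The limits of the class did not fall at a gap in the list. There were 67 members at 1 to 1.1 kb from a start, 55 of which shared no base with an exon, and 56 peaks of the promoter class within a gene at 0.9 to 1 kb that shared no base with one. At the far limit, 10 members lay at 9.9 to 10 kb and 13 deep-intron peaks lay in the next 100 bp. The nearest members were in Uba2 (1004 bp from the start), Fam49b (1005 bp) and Atad2b (1007 bp). The farthest were in Fkbp5 (9981 bp), Kif13b (9983 bp) and Atad5 (9992 bp, from the start of the neighbouring Tefm). The median distance was 4366 bp, with quartiles of 2325 and 6805 bp.

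For 1824 members (86.2%, 95% interval 84.7 to 87.7%), the nearest start was that of the gene they lay in. For the other 291 it was the start of another gene, on the opposite strand in 158 cases. In 184 members (8.70%) the host gene's own start was more than 10 kb away. Some of these hosts are very long models that run over other genes. Gm20388 spans chromosome 8 from 119910841 to 124345722 and hosted 6 members, each nearest to the start of another gene, such as Foxc2, Cdt1 and Ankrd11. The model of Fgfr2, an FGF receptor gene, spans chromosome 7 from 130162451 to 133123350, and 1 of its 4 members lay nearest to the start of Nkx1-2.

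The first intron of the host gene held 974 members (46.1%, interval 43.9 to 48.2%), the second held 489 (23.1%) and later introns held 652 (30.8%), with introns counted over all exons of a gene merged. Per length the difference was small. First introns within the distance limits had 17.0 peaks per Mb and later ones 14.3, a ratio of 1.18 (interval 1.08 to 1.29, exact binomial test, p = 0.000137). When introns were numbered in the longest protein-coding transcript instead, the ratio was 1.52 (p = 2.70e-17, same exact test). That ratio is over a smaller set, 1069 members in first introns and 648 in later ones. Members and sequence in no intron of that transcript were left out, so the 2 ratios do not cover the same members.

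Other annotated starts accounted for a part of the class. The rule used 1 start per gene, but 403 members (19.1%, interval 17.4 to 20.8%) had their midpoint within 500 bp of the 5' end of another transcript of a protein-coding gene. Such stretches made up 4.85% of near-intron sequence, so members were found there 3.93 times as often as length alone gives (exact binomial test, two-sided, p = 1.53e-121). Without the members that touch an exon the ratio was 2.05 (9.96% of 1818 members, p = 3.99e-19, same exact test). A further 64 members lay at a start of another kind of gene, and 1648 had no annotated start within 500 bp. The start used is the 5' end of the gene model, so another start can be the main one of its gene. Which start is the main one was not tested. Members at another start included a peak of 385 bp in Ctnnb1, which encodes beta-catenin of the WNT pathway (39 bp from that start). Others were a peak of 584 bp in Pias1, a SUMO ligase gene (35 bp), and one of 916 bp in the model of the ribosomal protein gene Rpl3 (3 bp). Ctnnb1 and Pias1 had no peak at the start used. The polycomb cofactor gene Jarid2 carried 3 members, at 1102, 1742 and 4497 bp from its start, which lay 198, 55 and 69 bp from other starts of its transcripts.

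Members at other starts differed in base composition from the rest. A window was called CpG-island-like when its GC content was at least 0.5 and its ratio of observed to expected CpG at least 0.6. This held for 401 members (18.96%), 6.72% of deep-intron peaks, 13.1% of intergenic peaks at 1 to 10 kb and 77.7% of promoter peaks. Near-intron peaks exceeded deep-intron peaks (odds ratio 3.25, Fisher's exact test, adjusted p = 3.25e-48) and intergenic ones (odds ratio 1.55, adjusted p = 1.66e-07), and lay below promoter peaks (odds ratio 0.0672, with a p too small to be represented). The difference from intergenic peaks turned round when distance was measured to any transcript start (6.63% against 13.2%, odds ratio 0.465, Fisher's exact test, adjusted p = 1.06e-15), and was not kept when peaks that touch an exon were left out (odds ratio 1.04, Fisher's exact test, adjusted p = 0.675). Among the 403 members at another protein-coding start, 52.4% were CpG-island-like (interval 47.4 to 57.3%), their median GC content was 62.0% and their median CpG ratio 0.634. Among the 1648 with no annotated start, 10.1% were (interval 8.72 to 11.7%), with a median GC content of 52.5% and a median CpG ratio of 0.233.

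**Figure D2:**
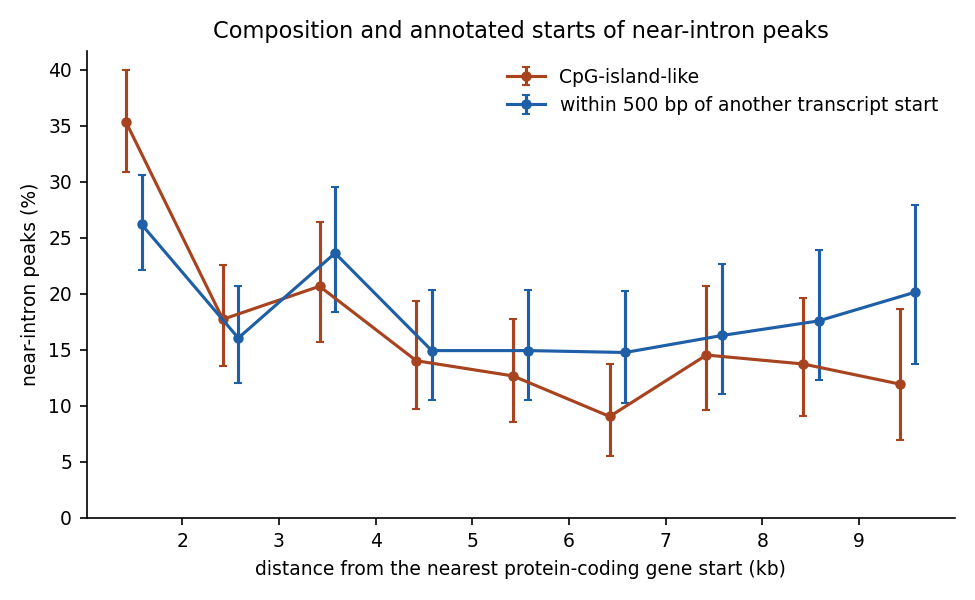
Share of near-intron peaks (vertical axis, %) that are CpG-island-like, and share within 500 bp of another transcript start of a protein-coding gene, by distance from the nearest gene start in kb (horizontal axis); points are bins of 1 kb and bars are exact 95% intervals. The CpG-island-like share is 35.3% at 1 to 2 kb and lies between 9.05 and 20.7% in the other bins.

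The share of CpG-island-like members was highest closest to a start. At 1 to 2 kb, 155 of 439 members (35.3%) were CpG-island-like and 26.2% lay at another annotated start. At 2 to 3 kb these shares were 17.7% and 16.1%, and at 6 to 7 kb 9.05% and 14.8%. The share at another start was 20.1% in the bin at 9 to 10 kb. Examples close to the gene start were peaks in Sall1, a developmental zinc finger gene (369 bp wide at 1309 bp, GC content 79.5%), in Topors, which encodes a ligase for ubiquitin and SUMO (261 bp at 1021 bp from the start of Smim27, 69.0%), and in Klf4 (129 bp at 1062 bp, 66.0%).

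Peaks were richer in G and C than the sequence beside them, which was not required to be intronic. Over the 1781 members whose windows 1 kb to either side held no listed peak, the median GC content was 54.0% in the peak and 47.8% in the mean of the flanks. It was higher in the peak for 1386 members and lower for 385 (exact sign test, two-sided, p = 2.44e-132), with a median difference of 6.25 percentage points. Repeat-masked bases made up a median of 9.94% of a member, and 186 members (8.79%) were mostly masked. Of the 137 Mb of near-intron sequence, 97.7 Mb was unmasked. The alignment used repeat-masked mm10 and the flanks were not filtered for masked bases, so masking may have a part in the GC difference, which was not tested. A near-identical copy elsewhere in the genome was found for 95 members (4.49%), against 4.82% of deep-intron and 1.38% of promoter peaks.

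Words read by pluripotency factors were more frequent in the members than beside them. A set of 18 words and 2 control words was searched on both strands in the 200 bp at the midpoint and in 200 bp centred 1 kb farther from the start, for the 1984 members whose flank held no listed peak. In exact McNemar tests with adjustment over the 20 words, 11 words (55% of those tested) were more frequent in the peak and 1 (5%) was less frequent. The Esrrb word was in 2.42% of peaks and 0.504% of flanks (48 peaks and 10 flanks, adjusted p = 3.01e-06, exact McNemar test). The Klf word was in 6.20% and 1.97% (adjusted p = 9.30e-11, same exact test), and the octamer in 2.62% and 1.01% (52 and 20, adjusted p = 0.000692, same exact test). The TCF word ATCAAAGG of the WNT pathway was in 1.51% and 0.655% (adjusted p = 0.0230, same exact test), and the TEAD word in 4.39% and 2.92% (adjusted p = 0.0343, same exact test). With 1 peak per host gene neither was called (0.784 percentage points each, exact McNemar test, adjusted p = 0.115 for TCF and 0.398 for TEAD), and TCF was not called among peaks of at least the median width (0.451 points, adjusted p = 0.649). The word TTGTNATGC, at the junction of the joint Sox2 and Oct4 site, was in 16 peaks and 8 flanks and was not called (exact McNemar test, adjusted p = 0.217). With distance measured to any transcript start, a larger set of peaks, it was in 40 peaks and 10 flanks and was called (1.13 percentage points, adjusted p = 9.54e-05, same exact test).

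Words of several other factors were also more frequent. The Sp1 word was in 152 peaks (7.66%) and 16 flanks (0.806%, exact McNemar test, adjusted p = 1.15e-29), the CTCF word in 26 and 2 (adjusted p = 1.52e-05), the ETS word CCGGAAGT in 21 and 3 (adjusted p = 0.000792), the AP-2 word GCCTNAGGC in 28 and 6 (adjusted p = 0.000692) and the NF-Y word CCAATCA in 68 and 38 (adjusted p = 0.00941). The YY1 word AAGATGGCG was in 9 and 1 (exact McNemar test, adjusted p = 0.0358), a call that 5 of the other settings did not keep. ETS was not called with distance to any transcript start (15 peaks and 7 flanks, exact McNemar test, adjusted p = 0.178), AP-2 among peaks of at least the median width (6 and 4, adjusted p = 0.860) and NF-Y with 1 peak per host gene (52 and 33, adjusted p = 0.106). The GATA word AGATAA was less frequent in peaks, 7.01% against 9.78% (exact McNemar test, adjusted p = 0.00537), but was not called among wide peaks (adjusted p = 0.302) or against the flank nearer to the start (adjusted p = 0.310). The AP-1 word TGANTCA was in 108 peaks and 108 flanks. The STAT word TTCCNGGAA, which factors of LIF signalling read, was in 15 and 12 (adjusted p = 0.738, exact McNemar test). The E-box CACGTG was in 91 and 66 (exact McNemar test, adjusted p = 0.0776), the CREB word TGACGTCA in 11 and 6 and the NRF1 word GCGCATGCG in 6 and 2, none of them called. The control words, the octamer and the Esrrb word with their letters in reverse order, were in 1 and 5 peaks and in 3 and 8 flanks. The peaks were richer in G and C than the flanks, and the part of this difference in the GC-rich words was not tested. The flanks were not filtered for repeat-masked bases either, and the part of masking in the word differences was not tested.

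**Figure D3:**
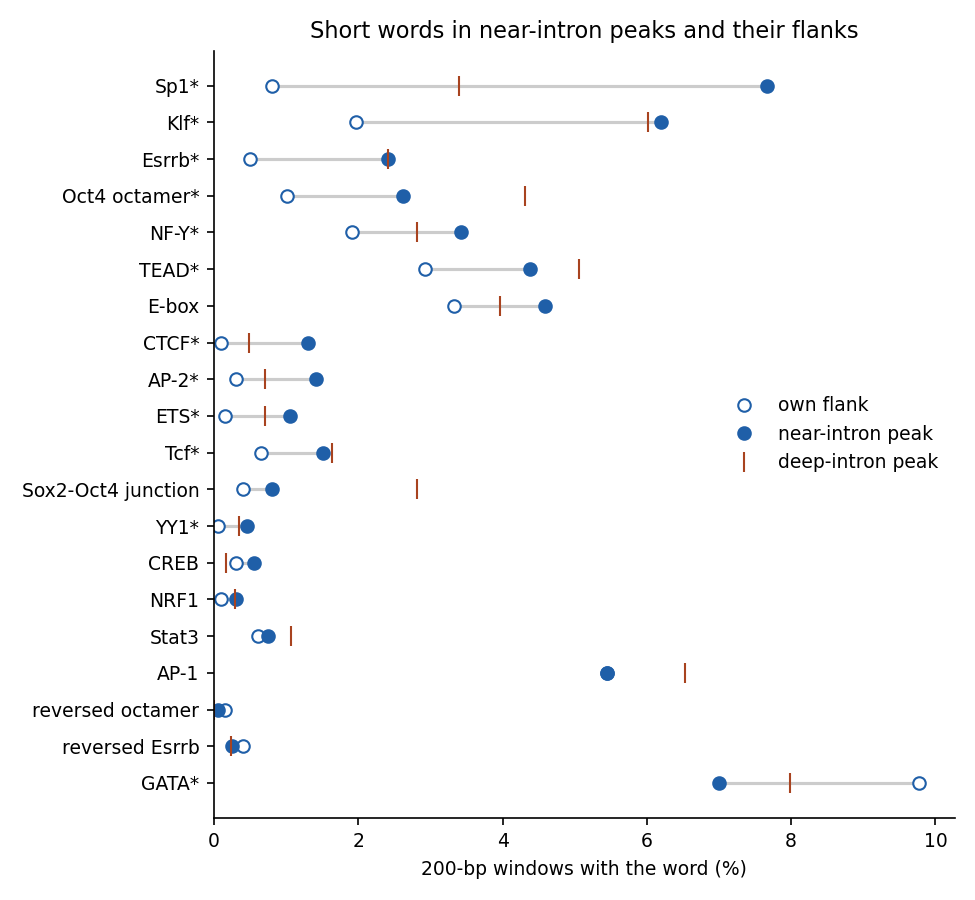
Share of windows of 200 bp that hold each word (horizontal axis, %), in near-intron peaks (filled circles) and in their own flanks (open circles), with the share in deep-intron peaks as a tick; a star marks an adjusted p under 0.05 between peak and flank. Sp1 goes from 0.806% in flanks to 7.66% in peaks, and GATA is the starred word that is lower in peaks.

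Against deep-intron peaks, words differed in both directions. Of the 20 words, 2 (10%) were more frequent in near-intron peaks and 2 (10%) less frequent, by Fisher's exact test with adjustment. Sp1 was in 7.85% of near-intron and 3.39% of deep-intron peaks (log2 odds 1.28, Fisher's exact test, adjusted p = 3.46e-13) and CTCF in 1.32% and 0.491% (1.44, adjusted p = 0.00271). The joint Sox2 and Oct4 word was in 0.898% of near-intron and 2.82% of deep-intron peaks (log2 odds -1.64, Fisher's exact test, adjusted p = 1.06e-06) and the octamer in 2.60% and 4.31% (-0.75, adjusted p = 0.00282). The calls of CTCF and the octamer did not hold among peaks of at least the median width (log2 odds 1.51 and -0.74, Fisher's exact test, adjusted p = 0.177 and 0.0982), where fewer peaks were tested and the odds were of like size. With distance to any transcript start, neither was called (log2 odds 0.94 and -0.49, Fisher's exact test, adjusted p = 0.328 and 0.0782). The Klf word (6.10% and 6.02%) and the Esrrb word (2.41% in both) were not called (Fisher's exact test, adjusted p = 1 for each). Over all autosomal peaks the Sp1 word was in 7.63% of windows, the octamer in 2.77%, the Klf word in 4.44%, the Esrrb word in 1.49%, the CTCF word in 1.32% and the TEAD word in 3.69%.

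The words also differed between members with and without an annotated start. Sp1 was in 79 of the 403 members at another protein-coding start (19.6%) and in 78 of the 1648 with no start (4.73%). The octamer was in 1.49% of the former and 2.91% of the latter, and the Esrrb word in 0.744% and 2.79%. The Klf word was at a like level in both (5.96% and 6.13%). These shares are descriptions, with no test.

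Near-intron peaks spanned 91 to 1798 bp, the middle 50% of them 142 to 329 bp, and the median of 207 bp compared with 210 bp in deep introns, 251 bp at promoters and 222 bp between genes at 1 to 10 kb. The share at or above 223 bp, the median of the list, was 45.2%, not called against deep introns (46.7%, odds ratio 0.94, Fisher's exact test, adjusted p = 0.237) and below promoters (56.7%, odds ratio 0.630, adjusted p = 9.61e-21) and intergenic peaks (49.7%, odds ratio 0.834, adjusted p = 0.00430). Without peaks that touch an exon, the share was 42.2%, against 34.8% at promoters (odds ratio 1.37, Fisher's exact test, adjusted p = 5.39e-06). This filter left 1818 of 2115 near-intron peaks but 2113 of 8560 promoter peaks. A wider peak touches an exon more easily, so the filtered shares cannot compare widths between these classes. With only the widest peak per host gene kept, the share was 51.1%, against 58.9% in deep introns (odds ratio 0.730, Fisher's exact test, adjusted p = 5.52e-06). The difference from intergenic peaks was then not called (odds ratio 1.06, Fisher's exact test, adjusted p = 0.410). This choice selects by width, and in introns only. It reduced 2115 near-intron peaks to 1579 and 4687 deep-intron peaks to 2306, while all 2216 intergenic peaks were kept. These values therefore cannot compare widths between the classes.

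Agrn held the broadest of these peaks. It encodes agrin, a proteoglycan of the basement membrane, and had peaks of 1798 bp (chromosome 4, 156188209 to 156190006) and 1420 bp (156192289 to 156193708) in intron 2, at 8380 and 4489 bp from the start. Others were in Parp16 (1294 bp), the junctional adhesion gene Jam2 (1287 bp, with an Esrrb word), Vmn2r85 (1215 bp), Sept1 (1209 bp, with a near-identical copy elsewhere), Epp13 (1205 bp), Arrdc3 (1102 bp), Zfhx2 (1065 bp) and Trp53, the gene of p53 (1027 bp, chromosome 11, 69581381 to 69582407, at 1535 bp in intron 1). Of these 10 peaks, the one in Arrdc3 was CpG-island-like, and it lay 76 bp from another transcript start. The peak in Epp13 lay 126 bp from another transcript start, and the peak in Parp16 lay 453 bp from a start of another kind of gene.

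A near-intron peak was found in 1579 of the 18818 genes that have such introns, 8.39%. Most of them had 1 (1219 genes), while 248 had 2, 78 had 3 and 34 had 4 or more. The 112 genes with 3 or more were 0.595% of the genes with such introns. Genes with 2 or more members together hosted 896 members (42.4%). Neighbouring members of a gene were a median of 1495 bp apart, and 63.9% of members had another listed peak within 5 kb, so members of a gene are not independent of each other.

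Genes with a near-intron peak more often had a promoter peak. A peak touched the window of 1 kb either side of the start in 891 of the 1579 genes (56.4%) and in 6971 of the 17239 others (40.4%), an odds ratio of 1.91 (Fisher's exact test, two-sided, p = 2.69e-34). With genes split into 4 equal groups by near-intron length, the odds ratio was 2.95, 1.72, 1.77 and 1.54, from the shortest to the longest (Fisher's exact test, largest p = 1.65e-06). Genes with a promoter peak held 20.3 near-intron peaks per Mb and genes without one 11.6. Even so, 688 of the genes with a near-intron peak had none at the start used here. These figures count any peak that touches the window, so a member just past 1 kb can itself count as the promoter peak. With the peak midpoint required within 1 kb, which no member meets, the shares were 54.0% (852 genes) and 40.1% (6921 genes). The odds ratio was then 1.75 (Fisher's exact test, two-sided, p = 4.03e-26).

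Gene groups were compared by counts, beside 8.39% of all genes and 15.4 peaks per Mb. Core pluripotency genes had the highest share of the lists shown, 9 of 19 (47.4%, interval 24.4 to 71.1%), with 18 members and 146 per Mb. Lineage factors, transcription factor and signal genes of differentiation, had 14 of 34 (41.2%, interval 24.6 to 59.3%) with 22 members and 122 per Mb, although 10 of the 34 had a promoter peak. Genes of heterochromatin had 7 of 15 (46.7%), LIF and STAT3 signalling 4 of 13 (30.8%), FGF and ERK signalling 6 of 20 (30.0%), DNA methylation 4 of 14 (28.6%), PML body components 5 of 18 (27.8%, interval 9.69 to 53.5%), chromatin remodelling 7 of 29 (24.1%), WNT 5 of 21 (23.8%), polycomb 5 of 26 (19.2%) and Nodal and BMP 3 of 19 (15.8%). Without Fgfr2, which has the long model described above, the FGF and ERK list had 5 of 19 (26.3%) with 7 members. Without Trim28, whose members lie nearest to Zbtb45, the heterochromatin list had 6 of 14 (42.9%). The intervals of small lists are wide and several include 8.39%.

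**Figure D4:**
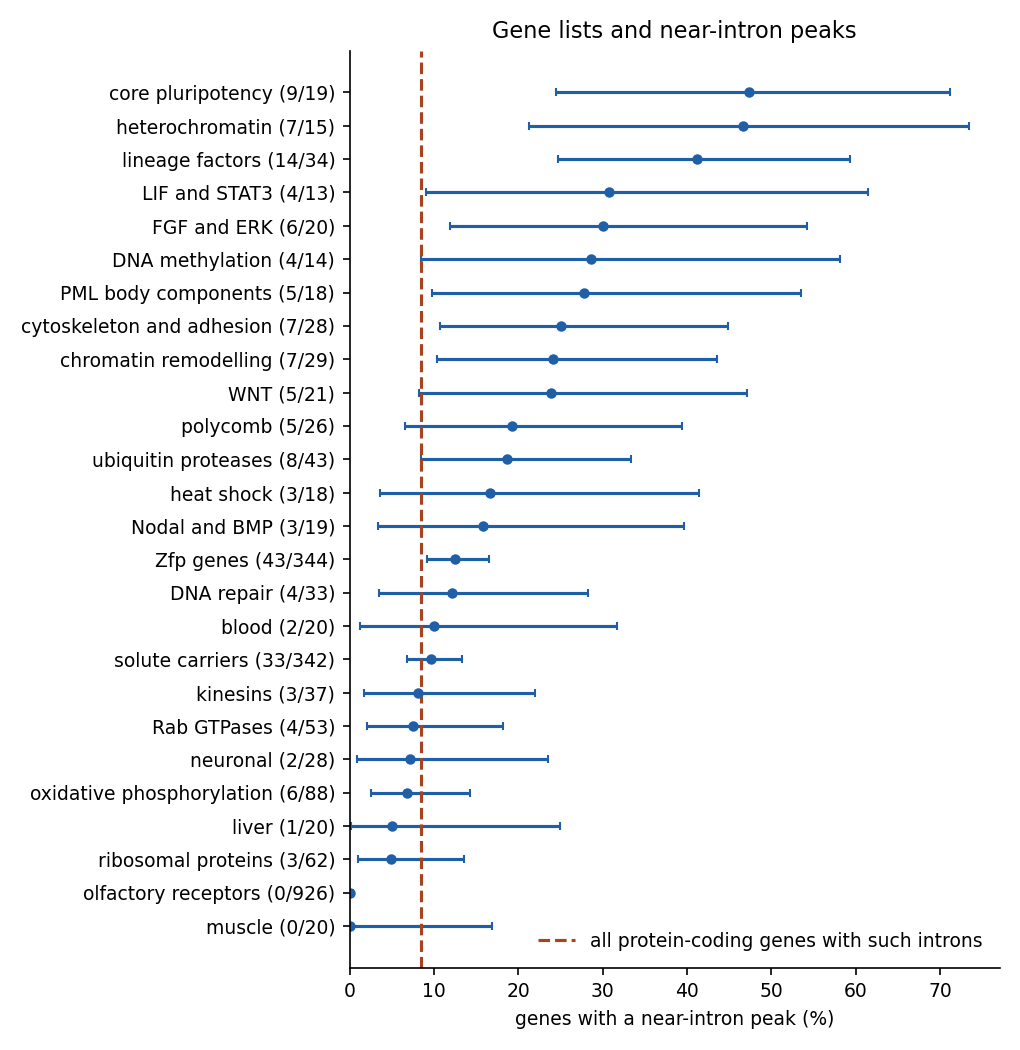
Share of genes with a near-intron peak (horizontal axis, %) in each gene list described, with the count of genes and exact 95% intervals; the dashed line is the share over all protein-coding genes with such introns, 8.39%. Core pluripotency, heterochromatin and lineage factors lie farthest to the right, and olfactory receptors and muscle genes are at 0.

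Other lists ranged from 0 to 7 of 28 genes, the latter for cytoskeleton and adhesion (interval 10.7 to 44.9%), a share above those of chromatin remodelling, WNT, polycomb and of Nodal and BMP. Ribosomal protein genes had 3 of 62 (4.84%), although 55 of the 62 had a promoter peak, and genes of oxidative phosphorylation 6 of 88 (6.82%), with a promoter peak at 73. DNA repair genes had 4 of 33 (12.1%), heat shock genes 3 of 18 (16.7%), Rab GTPases 4 of 53 (7.55%), kinesins 3 of 37 (8.11%) and solute carriers 33 of 342 (9.65%). Zfp genes had 43 of 344 (12.5%) and ubiquitin proteases 8 of 43 (18.6%). Neuronal genes had 2 of 28 (7.14%), blood genes 2 of 20, liver genes 1 of 20 (5.00%), muscle genes 0 of 20, which allows up to 16.8% (exact interval), and olfactory receptor genes 0 of 926, which allows up to 0.398%. Olfactory receptor genes had a median of 2.20 kb of such introns against 8.29 kb over all genes.

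Among the pluripotency genes, Sall4, a zinc finger factor that works with Oct4, had the most, 6 members at 1350, 1546, 2366, 3279, 5212 and 6620 bp from its start, with widths of 97 to 409 bp. Nr5a2, a nuclear receptor gene, had 3 at 6568, 7443 and 9104 bp (674, 366 and 420 bp wide) and no peak at the start used. The first of these lay 250 bp from another of its starts. Fgf4, an FGF ligand gene, has a model from 144847367 to 144865243 on chromosome 7. It had no peak at the start of that model and 2 members in the first intron, at 4095 bp (249 bp wide, with an Esrrb word) and 6846 bp (182 bp). Pou5f1, the gene of Oct4, had a peak of 133 bp at 1153 bp in intron 1 (chromosome 17, 35507105 to 35507237) and one of 564 bp at 3575 bp in intron 4 (35509311 to 35509874). Single members lay in Lin28a, a regulator of let-7 (641 bp at 6987 bp, with an Sp1 word), Zfp42, the gene of Rex1 (387 bp at 1113 bp), Dppa2 (296 bp at 5204 bp), Klf4 and Klf5 (108 bp at 9525 bp).

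Among the PML body components, Pml had 2 members in intron 3, of 235 bp at 7863 bp (chromosome 9, 58241806 to 58242040) and 131 bp at 5872 bp (58243849 to 58243979). The narrower one held an Esrrb word and was 69.5% repeat-masked. Usp7, a ubiquitin protease that acts on p53 and its ligase, had 2, of 354 bp at 8803 bp with an octamer and of 107 bp at 4004 bp. Pias1, Topors and Trp53 had 1 each. The peak in Trp53 was the widest of these 7.

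**Figure D5:**
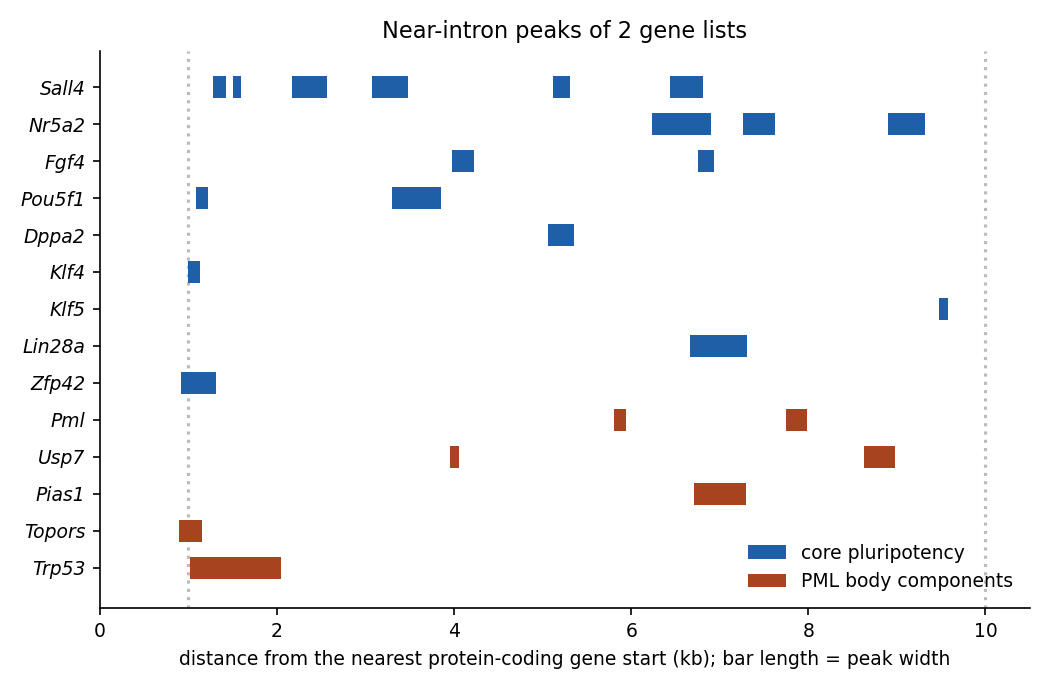
Position of each near-intron peak in genes of the core pluripotency and PML body lists, as distance from the nearest protein-coding gene start in kb (horizontal axis), with bar length equal to peak width; each row is 1 gene and the dotted lines mark 1 and 10 kb. Sall4 has 6 peaks from 1350 to 6620 bp, and the widest bar is the 1027 bp peak of Trp53.

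Signalling genes carried members at several levels of the pathways. Of the FGF pathway, the model of Fgfr2 held 4, all between 132600946 and 133120530 on chromosome 7. They lay toward the 5' end of this model, which spans 130162451 to 133123350 and also covers other genes. These members are counted for Fgfr2 only through that long model. The ETS factor gene Etv5 had 2 (131 bp at 5466 bp and 351 bp at 1206 bp) and Spry2 had 1 of 229 bp at 1700 bp. Of the LIF pathway, Bcl3 had 3, of 98, 427 and 129 bp, and the kinase genes Pim1 and Pim3 had 1 each, of 183 and 280 bp. Of the WNT pathway, Tcf7l1, the repressive TCF of these cells, had 2 CpG-island-like members, of 563 bp at 1700 bp and 195 bp at 1144 bp. Tcf7l2, Ctnnb1 and Cdx1 had 1 each. The Nodal and BMP members were in the receptor gene Acvr1b (210 bp), the ligand gene Bmp4 (184 bp, 190 bp from another start) and the inhibitor gene Smad7 (222 bp).

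Among chromatin genes, CpG-island-like members lay in Arid1a, a subunit of the SWI/SNF remodeller (583 bp at 2338 bp), in the corepressor gene Ncor1 (706 bp at 1396 bp from the start of Pigl), in Chd2 (676 bp at 3919 bp) and in Jarid2. Members away from annotated starts and of lower GC content lay in Tet1, the dioxygenase of DNA methylcytosine (156 bp at 5928 bp, 53.0% GC, with an octamer), in the H3K9 methyltransferase gene Ehmt1 (256 bp at 7201 bp, 44.5%) and in the polycomb gene Eed (339 bp at 5242 bp, 46.0%). Trim28 had members of 764 and 235 bp within its model, both nearest to the start of Zbtb45. Among the lineage factors, Sall3 had 4 members in its first intron (266 to 417 bp wide), the gene of the TEAD factor Tead1 had 3 (151, 245 and 594 bp), and Sall1 and Meis2 had 2 each.

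The genes with the most members included several of repeated families. 4833420G17Rik had 8 members and Ppp2r3d, a phosphatase subunit gene, had 7, with no near-identical copy among them. Others were the zinc finger gene Zfp990 with 7, Gm14412 with 6, and Gm21411, Gm31371 and C130026I21Rik with 5 each. All 5 members of Gm31371, 4 of 5 in Gm21411, 4 of 7 in Zfp990, 3 of 5 in C130026I21Rik and 2 of 6 in Gm14412 have a near-identical copy elsewhere, so the reads behind them may belong to more than 1 place. Sp110, of the Sp100 family, had 5, and 2 of them have such a copy. No member had such a copy in Agrn and Sall4, with 6 members each, or in the following, with 5 each: Hmgcs1 (an enzyme of cholesterol synthesis), Kat6b, Klf3, the autophagy kinase gene Ulk1, the polarity gene Llgl2, Bahcc1, the cytokine gene Il17d and the immune receptor gene Cd244a. Hmgcs1 had peaks of 213, 257, 436, 581 and 194 bp between 4166 and 8432 bp. Klf3 had 4 of its 5 between 7703 and 8782 bp, the last of which lay 169 bp from another start.

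Per length of near-intron sequence, chromosomes 4, 9 and 13 held more members than the other autosomes and chromosome 12 held fewer. These were 3 (15.8%) and 1 (5.26%) of the 19 autosomes tested. Chromosome 4 had 191 members and 20.8 per Mb against 15.1 on the others (ratio 1.38, exact binomial test, adjusted p = 0.000798), chromosome 9 had 20.6 per Mb (1.36, adjusted p = 0.00229) and chromosome 13 had 20.5 per Mb (1.35, adjusted p = 0.0143). Chromosome 12 had 44 members and 9.71 per Mb (ratio 0.621, exact binomial test, adjusted p = 0.00631). When peaks with copies elsewhere were left out, chromosomes 4 (1.30, exact binomial test, adjusted p = 0.0149), 9 (1.41) and 12 (0.651) were called and chromosome 13, at a like ratio to chromosome 4, was not (1.30, adjusted p = 0.0655). Among peaks of at least the median width, chromosome 4 was called (10.1 per Mb against 6.75 on the others, exact binomial test, adjusted p = 0.00691), and chromosomes 9 (1.29, adjusted p = 0.238), 12 (0.656, adjusted p = 0.238) and 13 (1.09, adjusted p = 0.710) were not. With distance to any transcript start, chromosomes 4 (1.54) and 12 (0.707) were called, and 9 (1.12, exact binomial test, adjusted p = 0.209) and 13 (1.14, adjusted p = 0.244) were not. In that setting chromosomes 11 (1.31) and 17 (1.31) were also called higher. Chromosomes 2 (0.840), 3 (0.784), 5 (0.821), 6 (0.766) and 19 (0.748) were also called lower there. Per unmasked length, chromosome 6 was also called lower (0.764, exact binomial test, adjusted p = 0.0419). Without peaks that touch an exon, chromosome 13 was not called either (1.31, exact binomial test, adjusted p = 0.0632).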

How the data were processed

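The data were 4 ALaP-seq samples of APEX-PML embryonic stem cells, 2 with and 2 without hydrogen peroxide, and 1 deposited peak list. Trimming used Trimmomatic and alignment to repeat-masked mm10 used bowtie2 2.3.5.1, and bedtools removed blacklisted and greylisted regions, per the series' design text and the submitters' processing notes. The deposited file gives each peak's chromosome, start and end in bp. How peaks were called, at which threshold, and how they were merged is not given in the sources used here. Depth is unknown for each sample.

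Peaks were joined to GRCm38 and GENCODE M21 by midpoint with python 3.11.15, numpy, pandas, pysam 0.24.0 and scipy 1.17.1. A peak inside several genes was given to the one whose own start was nearest. Masking is that of the RefSeq GRCm38 sequence, and may differ from the authors'. Copies of the central 150 bp were sought with minimap2 2.31 (95% identity over 80% of the query). Composition and words used the central 200 bp. Densities were tested with exact binomial tests on lengths, shares with Fisher's exact test, words with exact McNemar tests. P-values were adjusted by the Benjamini-Hochberg method over the words, chromosomes or classes compared, and called at 0.05. Intervals are Clopper-Pearson 95% intervals. P-values and intervals describe this list, with peaks or genes as units that are not independent. The tests were tried on simulated data.

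The members, words and lists were chosen with earlier results of these data known. Gene lists were not tested, and 1 of them is not reported here. The genes named are the 20 with most members, hosts of the 10 widest, all pluripotency and PML body genes with a member, up to 4 per other list, and the 3 nearest to and 3 farthest from a start. The sequences shown hold a called word, nearest the midpoint first, in such genes; windows with an exon were left out after the data were seen. The counts without Fgfr2 and Trim28 were also added then. Gene neighbours such as Foxc2 are named only to place a member.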

Additional observations from a re-analysis of the deposited data

How the results depend on the processing

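No paired analysis was possible because the list names no sample. The densities by distance and intron number, the excess at other starts, the GC difference from the flanks, the CpG-island-like shares against deep introns and promoters, and the promoter peaks of host genes kept their direction and side of the threshold under every alternative run for them. Measured to any transcript start, the odds ratio of the CpG-island-like share against intergenic peaks was 0.465, and without peaks that touch an exon it was 1.04. The odds ratio of wide peaks against deep introns was 0.879 without peaks that touch an exon and 0.730 with 1 peak per host gene. Against promoters it was 1.37 without peaks that touch an exon, and against intergenic peaks 1.06 with 1 peak per host gene. Keeping the widest peak per gene and leaving out peaks that touch an exon both bear on width, so these shifts do not show how the classes differ. Of 19 chromosomes, 1 was called with only peaks at or above the median width and 9 with distance to any transcript start. With 1 peak per host gene, 7 words were more frequent than in the flank, the calls of TCF, NF-Y, TEAD and YY1 being lost. None was less frequent among wide peaks, nor with the flank nearer to the start (0 of 20 each, exact McNemar test). Against deep introns, 1 word was called higher and 1 lower both among wide peaks and with any transcript start. Calls were also gained. AP-2 was called higher without copies (log2 odds 0.96, Fisher's exact test, adjusted p = 0.0460) and without peaks that touch an exon (1.11, adjusted p = 0.0274). CREB was called higher without windows that repeat 16 bases (1.76, Fisher's exact test, adjusted p = 0.0382).

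Words that changed sign were not called in either setting. Against the flank these were STAT (-0.23 percentage points among wide peaks) and the reversed Esrrb word (0.0528 with the nearer flank). Against deep introns, as log2 odds, they were NRF1 (1.20) and TEAD (0.12) among wide peaks; the reversed Esrrb word without copies (-0.30); Esrrb (-0.0699), ETS (-0.26) and NRF1 (1.56) with any transcript start; YY1 without peaks that touch an exon (-0.0457); and Esrrb without windows that repeat 16 bases (-0.0331), an alternative chosen after seeing the data. The cause of these changes was not tested. Depth is unknown, so an intron without a peak is not shown to lack signal.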

Other observations

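Windows that repeat themselves, with the same 16 bases at 2 places that do not overlap, were found in 44 of 2115 near-intron peaks (2.08%, exact 95% interval 1.52 to 2.78%) and in 104 of the 1984 flanks (5.24%, interval 4.30 to 6.32%). In deep introns the share was 2.65% and at promoters 0.935%. The alignment used repeat-masked mm10, and the flanks were not filtered for masked bases. The part of masking in the difference between peaks and flanks was not tested. Of the 166 near-intron peaks with an Sp1 word, 19 held 2 or more copies and 3 held 3 or more. Of the 129 with a Klf word, 9 held 2 or more, and 1 held 3. These counts were made after the sequences had been seen.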
